A study of Homo sapiens with 2 samples.

Results

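The genes examined here are those of cholesterol and fatty acid synthesis that the sterol regulatory element-binding proteins (SREBPs) control, together with the genes of that control itself. They were taken by name from the deposited expression table, as rows of protein-coding genes, and all 32 named genes were found among its 58735 genes, of which 19951 are protein-coding. They fall into 18 enzymes of sterol synthesis, 6 genes of sterol regulation and transport, and 8 enzymes of fatty acid synthesis. The RNA came from SF-539, an established human glioblastoma (GBM) cell line, which had been infected with pGIPZ lentiviruses and selected with puromycin for stable integration. The 2 conditions were shControl, which carries the nontargeting hairpin, and shFKBP9, which carries a short hairpin RNA against FKBP9, a prolyl isomerase of the endoplasmic reticulum (ER). Both were grown in DMEM with serum, and no further treatment is named. Each condition was sequenced as 1 library, so no difference below has a replicate check, and no test between the conditions was possible. Which of the study's hairpins against FKBP9 the sequenced cells carried is not given in the sources used here, and what belongs to a hairpin cannot be told apart from what belongs to lower FKBP9. Whether a cell population stems from 1 clone or from many is not given in the sources used here.

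SREBPs are made as membrane proteins of the ER. When sterols are scarce, the escort protein SCAP carries them to the Golgi, where proteases release the part that enters the nucleus and activates lipid synthesis genes. When sterols are plentiful, the INSIG proteins hold SCAP in the ER. SREBF2 encodes the form that mainly drives sterol synthesis, and SREBF1 the forms that mainly drive fatty acid synthesis in many tissues. SREBPs bind sterol response elements in promoters next to sites for the ubiquitous factors NF-Y and SP1. Glioma cells are known for a high demand for cholesterol and fatty acids.

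Promoter windows from RefSeq (build GRCh38.p14), each reaching from 250 bases before a transcription start site to 50 bases after it, were given for 28 of the 32 genes, in 39 windows of 300 bases. ACAT2, FDFT1, SQLE and FASN had none. Motifs were searched on both strands: TCACNCCAC for the sterol response element, CCAAT for NF-Y, GGGCGG for SP1 and CACGTG for the E-box. The 250 bases before the start site are shown for 4 genes: both genes that encode SREBPs, INSIG1 as the most abundant gene of sterol control, and SCD as the most abundant gene of all 32. Capitals mark matches to the first 3 motifs on either strand, and adjoining capitals are matches that overlap.
SREBF2 (chr22:41832855-41833104, plus strand): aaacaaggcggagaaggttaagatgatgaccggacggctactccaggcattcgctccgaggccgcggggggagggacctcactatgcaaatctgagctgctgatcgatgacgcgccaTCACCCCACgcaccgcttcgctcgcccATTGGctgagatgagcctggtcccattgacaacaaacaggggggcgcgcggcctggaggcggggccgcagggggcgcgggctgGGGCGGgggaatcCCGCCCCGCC
SREBF1 (chr17:17836987-17837236, minus strand): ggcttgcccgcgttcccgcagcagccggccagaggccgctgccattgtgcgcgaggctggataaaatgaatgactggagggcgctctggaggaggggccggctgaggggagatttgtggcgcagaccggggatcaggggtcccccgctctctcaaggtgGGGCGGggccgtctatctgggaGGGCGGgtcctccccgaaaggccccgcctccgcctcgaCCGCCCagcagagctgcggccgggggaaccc
INSIG1 (chr7:155297628-155297877, plus strand): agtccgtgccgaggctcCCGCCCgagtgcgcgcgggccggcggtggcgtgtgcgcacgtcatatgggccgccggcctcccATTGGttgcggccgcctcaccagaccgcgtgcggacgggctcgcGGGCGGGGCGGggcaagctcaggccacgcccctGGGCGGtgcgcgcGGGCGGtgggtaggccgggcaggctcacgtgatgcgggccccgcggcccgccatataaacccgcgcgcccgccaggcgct
SCD (chr10:100346983-100347232, plus strand): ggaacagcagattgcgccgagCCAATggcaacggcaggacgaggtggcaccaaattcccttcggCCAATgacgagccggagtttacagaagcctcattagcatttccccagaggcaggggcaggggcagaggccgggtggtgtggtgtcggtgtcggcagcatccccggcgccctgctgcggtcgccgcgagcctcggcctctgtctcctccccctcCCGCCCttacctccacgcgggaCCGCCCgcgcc

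SREBF2 was the only one of the 28 genes whose window held the sterol response element as spelled (3.57%), against 1.43% of the 8303 expressed protein-coding genes with a window (1 FPKM or more in at least 1 library). Counted by window, 1.13% of all 35116 windows held it. The match lay 133 bases before the start site. CCAAT was found for 21 of the 28 genes (75.0%), against 43.4% of those expressed genes. GGGCGG was found for 27 genes (96.4%), against 78.8%. CACGTG was found for 4 genes, namely LSS, SC5D, INSIG1 and SCAP (14.3% against 13.1%). The 7 genes without CCAAT in any window were SREBF1, SCAP, INSIG2, PMVK, CYP51A1, FADS1 and ELOVL6. MVK, NSDHL and IDI1 held the most matches to it, with 5 each, those of IDI1 spread over 2 of its windows. These matches describe letters in short windows, and several genes have more than 1 start site.

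Expression was deposited as FPKM, fragments scaled to gene length and to library size, so that levels can be compared between genes. The values times gene length were whole multiples of 1 step in each library, which gave back 18116873 fragments in shControl and 17158514 in shFKBP9. The 32 genes held 0.418% of the fragments in shControl and 0.366% in shFKBP9. FKBP9 itself had 4659 fragments in shControl (49.8 FPKM) and 415 in shFKBP9 (4.68 FPKM), so its level followed the labels. Of 10 markers listed for glia and glioma, 4 reached 1 FPKM, and their summed level was 339 FPKM (shControl) and 373 FPKM (shFKBP9) over the whole list. VIM stood at 277 and 295 FPKM, CD44 at 48.6 and 55.6 FPKM, and NES at 2.36 and 2.17 FPKM. CHI3L1 differed most of these 4, with 9.89 FPKM in shControl and 19.3 FPKM in shFKBP9 (log2 ratio 0.96, 95% counting interval 0.83 to 1.11). GFAP was at 0.196 and 0.139 FPKM, and AQP4 had 0 fragments in both libraries. Markers of oligodendrocytes, endothelium, and adipocytes and hepatocytes summed to at most 0.250 FPKM per list and library. Those of keratinocytes had 9 fragments in shControl (0.127 FPKM in sum) and 48 in shFKBP9 (0.983 FPKM). KRT14 had 1 and 24 of these fragments, KRT5 8 and 17, KRT6A 0 and 7, and KRT1 0 in both libraries. Of the neuronal markers, SNAP25 passed 1 FPKM in both libraries and GAD1 only in shFKBP9 (0.978 FPKM in shControl, 1.21 FPKM in shFKBP9), and of the microglial ones CSF1R did, with 8.30 FPKM and 9.67 FPKM (log2 ratio 0.22, interval 0.08 to 0.36), while PTPRC and AIF1 had 0 fragments. The part of any such cells in the results was not tested.

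Fatty acid synthesis was the arm with the larger difference. All 8 of its enzymes had a lower level in shFKBP9 than in shControl, with a median log2 ratio of FPKM (shFKBP9 to shControl, 0.1 added to both) of -0.35. A minimum of 1 FPKM in shControl, shFKBP9 or both was set for counting genes. Among the 17 sterol synthesis enzymes that reached it, 14 were lower and the median log2 ratio was -0.12. The 6 genes of sterol regulation and transport had a median of -0.13, with 4 lower and both INSIG genes higher. Over the 10346 protein-coding genes that reached the minimum, the median log2 ratio was -0.02, and 53.7% were lower. A change of 1.2-fold, used here to count genes, was passed downwards by 5 of the 8 fatty acid enzymes, 1 of the 17 sterol enzymes and 1 of the 6 regulation and transport genes. Of all those protein-coding genes, 10.9% passed it downwards. Upwards, 1 sterol enzyme and 1 regulatory gene passed it, against 9.11% of all. None of the 31 genes at the minimum passed the 2-fold change that the study's methods set, which 0.406% of protein-coding genes passed in either direction.

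Exact 95% Clopper-Pearson intervals were computed from the fragments. They cover counting error only and say nothing of the spread between cultures. The interval of the log2 ratio lay below 0 for 7 of the 8 fatty acid enzymes, for 6 of the 17 sterol enzymes and for 3 of the 6 regulation and transport genes, as for 24.0% of all protein-coding genes. It lay above 0 for INSIG2 alone among the 31 genes, against 19.7% of all.

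The base composition of a gene moved with these differences across the whole table. The GC content of transcripts and the log2 ratio had a Spearman's rho of -0.45 across 10329 protein-coding genes, a description across genes that share the same 2 libraries. With the genes cut into 5 equal groups by GC content, the median log2 ratio went from 0.13 in the group with the lowest GC content to -0.12 in that with the highest. The median GC content was 48.8% for the sterol enzymes, 52.0% for regulation and transport, and 53.1% for the fatty acid enzymes, which also were long (median 8330.5 bases). When the median log2 ratio of genes in the same GC group and the same of 5 length groups was subtracted, an alternative chosen after the data were seen, the medians became -0.09, -0.05 and -0.21. With that subtraction 7 of the 8 fatty acid enzymes, 12 of the 17 sterol enzymes and 4 of the 6 other genes lay below 0. Downward changes past 1.2-fold were then 3, 3 and 1, against 7.25% of all genes.

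Fatty acid synthesis starts from acetyl-CoA, which ACLY makes from citrate and ACSS2 from acetate. ACLY stood at 133 FPKM in shControl and 128 FPKM in shFKBP9, from 12536 and 11437 fragments. Its log2 ratio of -0.06 (95% interval -0.09 to -0.02) was the smallest difference of the arm, and it lay at 0.04 after the subtraction for GC content and length. ACSS2 stood at 8.68 FPKM and 7.28 FPKM (log2 ratio -0.25, interval -0.40 to -0.11). The ratio of ACSS2 to ACLY in shFKBP9 was 0.872 times that in shControl (exact conditional interval 0.784 to 0.969).

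ACACA, which encodes the carboxylase that makes malonyl-CoA in the committed step, stood at 6.33 FPKM in shControl and 4.81 FPKM in shFKBP9, from 1490 and 1074 fragments. Its log2 ratio was -0.39 (interval -0.51 to -0.28). FASN, the synthase that builds palmitate (chr17:82078333-82098332, hg38), stood at 24.3 FPKM in shControl, from 4126 fragments, and at 17.1 FPKM in shFKBP9, from 2756 fragments. The level in shFKBP9 was 70.4% of that in shControl, and the log2 ratio of -0.50 (interval -0.58 to -0.44) was the lowest of all 31 genes. Only 1.87% of protein-coding genes had a lower ratio. FASN also had the highest GC content of the 8 enzymes, 65.3%, and genes of its GC and length group had a median log2 ratio of -0.17. Its own ratio became -0.33 when this was subtracted, and that of ACACA became -0.33 as well.

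SCD introduces the double bond of oleate and was the most abundant of the 32 genes. It stood at 213 FPKM in shControl and 166 FPKM in shFKBP9, from 20728 and 15276 fragments. Its log2 ratio was -0.36 (interval -0.39 to -0.33), or -0.30 after the subtraction for GC content and length. SCD made up 53.4% of the summed FPKM of the arm in shControl and 49.6% in shFKBP9, and ACLY 33.2% and 38.2%. The ratio of SCD to ACLY in shFKBP9 was 0.808 times that in shControl (interval 0.782 to 0.835), and the ratio of FASN to ACLY 0.732 times (0.693 to 0.773). These ratios, like the others between genes given here, were chosen after the values were seen. They do not depend on how the libraries were scaled, but their intervals cover counting error only, ACLY was the enzyme with the smallest difference, and GC content differs between the genes (65.3% for FASN, 53.2% for ACLY). Whether the enzymes of this arm differed from each other between the conditions was not tested.

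FADS1 and FADS2 encode the desaturases for polyunsaturated fatty acids and lie head to head on chromosome 11. FADS1 stood at 9.56 FPKM in shControl and 7.56 FPKM in shFKBP9 (log2 ratio -0.33, interval -0.44 to -0.23). FADS2, at 1.89 FPKM and 1.41 FPKM, had a log2 ratio of -0.40 (interval -0.65 to -0.19). The change in the ratio of FADS2 to FADS1 had an interval that included 1 (0.944 times, 0.791 to 1.13). Their exons share 490 bases on opposite strands, where reads of an unstranded library cannot be told apart. After the subtraction for GC content and length, FADS1 was at -0.18 and FADS2 at -0.24, both under 1.2-fold. ELOVL6, which elongates palmitate to stearate, stood at 2.79 FPKM and 2.59 FPKM. Its log2 ratio of -0.10 had an interval (-0.33 to 0.11) that included 0, and relative to FASN it was 1.32 times as high in shFKBP9 (1.12 to 1.55). GC content was 42.1% for ELOVL6 and 65.3% for FASN, and after the subtraction their log2 ratios were -0.13 and -0.33.

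**Figure D1:**
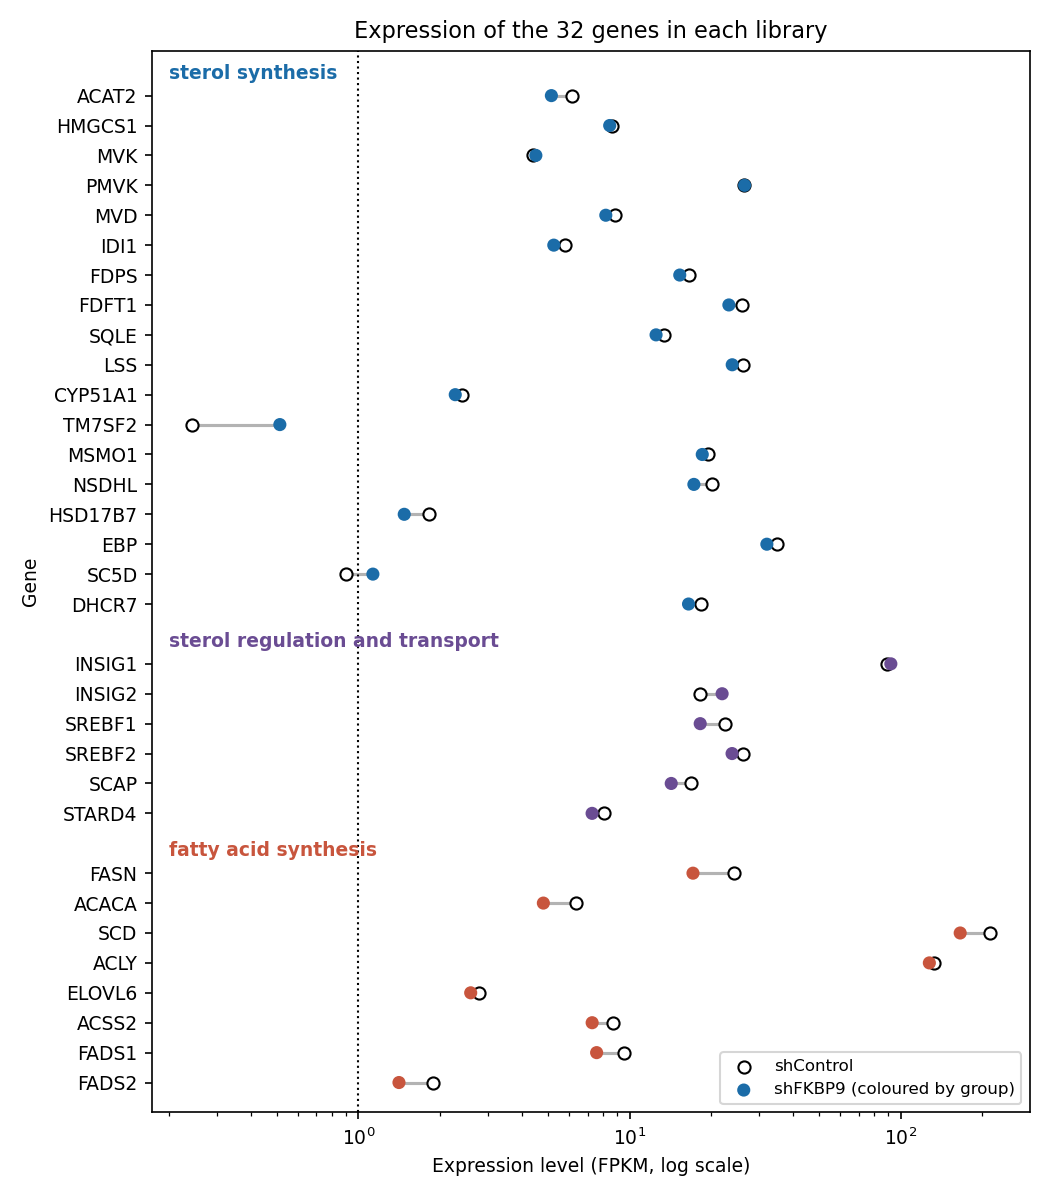
Level of each of the 32 genes in shControl (open circles) and shFKBP9 (filled circles) in FPKM on a log scale, grouped by role; the dotted line marks 1 FPKM. SCD, ACLY and INSIG1 have the highest levels, all 8 fatty acid enzymes have the filled circle to the left, and TM7SF2 is under 1 FPKM in both libraries.

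Of the genes of sterol regulation, INSIG1, itself a classical SREBP target, was by far the most abundant. It stood at 88.9 FPKM in shControl and 92.1 FPKM in shFKBP9, from 5877 and 5769 fragments. The log2 ratio of 0.05 had an interval (-0.003 to 0.10) that included 0. INSIG2 stood at 18.2 FPKM in shControl and 22.0 FPKM in shFKBP9, with a log2 ratio of 0.27 (interval 0.17 to 0.38). The ratio of INSIG2 to INSIG1 was thus 0.204 in shControl and 0.239 in shFKBP9, a change of 1.17 times (1.07 to 1.27). INSIG2 had a low GC content of 37.0%, and after the subtraction for GC content and length the log2 ratios were 0.13 for INSIG2 and 0.09 for INSIG1.

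SREBF1 (chr17:17810399-17837002) stood at 22.4 FPKM in shControl and 18.2 FPKM in shFKBP9, from 3264 and 2513 fragments. Its log2 ratio of -0.30 (interval -0.38 to -0.22) was past 1.2-fold. SREBF2 (chr22:41833079-41907308) stood at 26.2 FPKM and 23.9 FPKM, with a log2 ratio of -0.13 (-0.20 to -0.06). The ratio of SREBF1 to SREBF2 was 0.857 in shControl and 0.763 in shFKBP9, a change of 0.890 times (0.828 to 0.956). Both genes are rich in GC (63.4% and 57.2%), and after the subtraction the log2 ratios were -0.14 for SREBF1 and -0.01 for SREBF2.

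SCAP stood at 16.9 FPKM in shControl and 14.3 FPKM in shFKBP9 (log2 ratio -0.24, interval -0.34 to -0.15), and at -0.09 after the subtraction. STARD4, a carrier of cholesterol between membranes and a known SREBP target, stood at 8.02 FPKM and 7.28 FPKM, with a log2 ratio of -0.14 (-0.29 to 0.01). STARD4 moved the other way from SCAP with the subtraction, to -0.29, since the median log2 ratio of genes of its GC content and length was 0.15.

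The first part of sterol synthesis leads from acetyl-CoA to farnesyl diphosphate. None of its 7 genes passed 1.2-fold, and their log2 ratios lay between -0.25 and 0.04. After the subtraction for GC content and length, 2 of them were past 1.2-fold downwards (against 7.25% of all genes), ACAT2 at -0.29 and IDI1 at -0.28. ACAT2, the thiolase at the start, stood at 6.13 FPKM in shControl and 5.15 FPKM in shFKBP9, from 477 and 380 fragments. Its log2 ratio of -0.25 (interval -0.45 to -0.05) was the lowest of the 7 and the only one whose interval lay below 0. ACAT2 shares 22.2% of its exonic bases with other genes, chiefly TCP1 on the opposite strand, which had 6227 fragments in shControl and 5143 in shFKBP9. As reads of the pair cannot be told apart where they overlap, the value of ACAT2 is uncertain. HMGCS1, the HMG-CoA synthase and a sensitive SREBP target, stood at 8.61 FPKM and 8.45 FPKM, with a log2 ratio of -0.03 (-0.18 to 0.13).

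MVK and PMVK, the kinases that phosphorylate mevalonate, were at nearly the same level in both libraries. MVK had 4.40 FPKM in shControl and 4.51 FPKM in shFKBP9 (log2 ratio 0.04), and PMVK had 26.4 FPKM and 26.6 FPKM (0.01). MVD, IDI1 and FDPS, which make and join the isoprene units, had log2 ratios of -0.12, -0.13 and -0.12, each with an interval that included 0. FDPS was the most abundant of these 3, with 16.6 FPKM in shControl and 15.3 FPKM in shFKBP9. After the subtraction MVK was at 0.19 and HMGCS1 at -0.18.

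The second part begins with squalene synthesis and ends with cholesterol. FDFT1, the squalene synthase, stood at 26.0 FPKM in shControl and 23.3 FPKM in shFKBP9, from 2447 and 2077 fragments, with a log2 ratio of -0.16 (interval -0.24 to -0.07). SQLE, the squalene epoxidase and a rate-limiting step, stood at 13.4 FPKM and 12.5 FPKM (-0.10, -0.23 to 0.03). The ratio of SQLE to FDFT1 in shFKBP9 was 1.04 times that in shControl (0.938 to 1.16), so the pair could not be told apart at this depth. LSS, which closes the ring to lanosterol, stood at 26.2 FPKM and 23.9 FPKM (-0.13, -0.20 to -0.06).

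Among the enzymes that turn lanosterol into cholesterol, EBP, the sterol isomerase, was the most abundant, with 34.9 FPKM in shControl and 32.1 FPKM in shFKBP9 (log2 ratio -0.12). DHCR7, the last reductase, stood at 18.3 FPKM and 16.5 FPKM (-0.15), and NSDHL, a dehydrogenase that removes methyl groups, at 20.1 FPKM and 17.3 FPKM (-0.22). The intervals of EBP, DHCR7 and NSDHL lay below 0. MSMO1, the methylsterol oxidase, stood at 19.4 FPKM and 18.5 FPKM, with a log2 ratio of -0.07 and an interval that included 0. CYP51A1, the lanosterol demethylase, stood at 2.42 FPKM and 2.28 FPKM (-0.08, -0.43 to 0.25). It shares 74.1% of its exonic bases with other annotated genes, and the largest of these overlaps is with a gene that had 0 fragments in both libraries. Overlaps of exons also touched HMGCS1 (37.7%), EBP (36.4%), FDPS (18.6%), IDI1 (15.0%), SREBF2 (9.08%), LSS (7.88%) and SREBF1 (6.75%), with smaller shares for MVK, FDFT1, STARD4, ACLY, ELOVL6 and TM7SF2. The partners with the largest overlap had, for HMGCS1, IDI1 and LSS, at most 3 fragments in a library. Partners with more fragments included RUSC1-AS1 for FDPS (149 in shControl, 116 in shFKBP9), SREBF2-AS1 for SREBF2 (92 and 83), RAI1 for SREBF1 (1161 and 825), MMAB for MVK (514 and 474) and STARD4-AS1 for STARD4 (245 and 257). TM7SF2, with few fragments of its own, shares 18 bases with VPS51 on the same strand (1835 and 1682). The levels of these 6 genes are less certain, as are those of CYP51A1 and EBP, whose overlaps are large and on the same strand. The overlap partner of EBP is not among the 58735 deposited genes, so its fragments cannot be given. How the authors assigned reads shared between genes is not given in the sources used here. FASN, ACACA, SCD, ACSS2 and both INSIG genes had no such overlap.

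The 3 enzymes of this part with the fewest fragments were also those with the widest intervals. HSD17B7, a sterol ketoreductase, had 157 and 121 fragments (1.81 FPKM and 1.48 FPKM) and a log2 ratio of -0.28 (interval -0.65 to 0.05), past 1.2-fold downwards. With the 3 and 5 fragments of its pseudogene HSD17B7P2 added, it no longer passed 1.2-fold. SC5D, a sterol desaturase, had 91 and 108 fragments (0.903 FPKM and 1.13 FPKM) and a log2 ratio of 0.29 (-0.09 to 0.74). SC5D reached the minimum only through the library in which it was higher, so its call past 1.2-fold is no support for a difference. TM7SF2, a sterol reductase, had 15 and 30 fragments (0.243 FPKM and 0.513 FPKM) and was under the minimum. Its log2 ratio was 0.84 (interval 0.14 to 2.08), the highest of the 32 genes. Without the 0.1 added, as in the interval, its level in shFKBP9 was 211% of that in shControl.

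**Figure D2:**
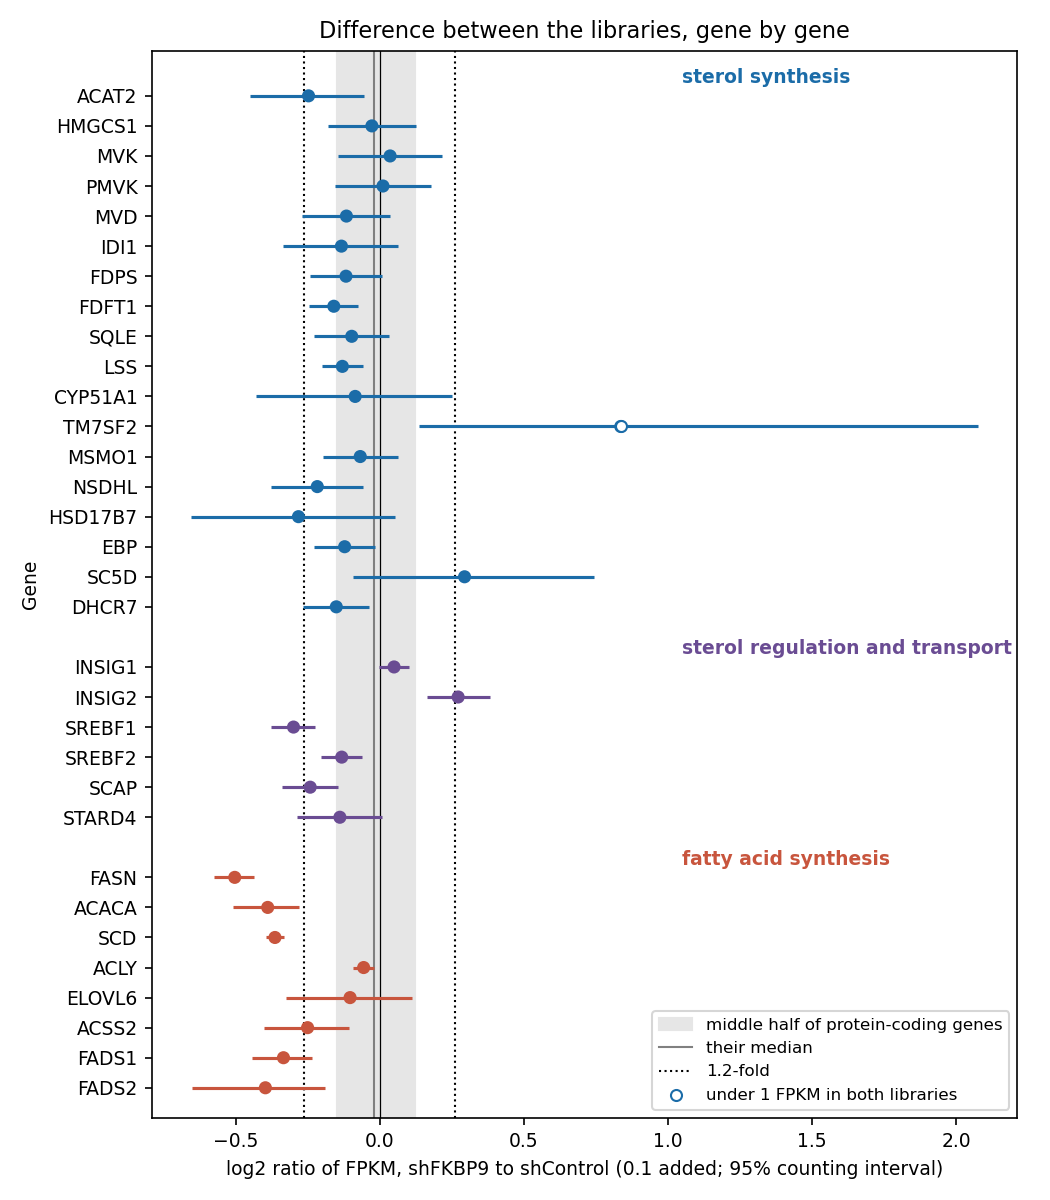
The log2 ratio of FPKM (shFKBP9 to shControl, 0.1 added to both) of each gene, with a bar for its 95% counting interval, computed without the 0.1. The grey band runs from the lower to the upper quartile of protein-coding genes (-0.15 to 0.12) and dotted lines mark 1.2-fold. FASN at -0.50 and 4 further fatty acid enzymes lie left of the dotted line, most sterol enzymes lie in or near the band, and INSIG2 lies at the right.

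Summed over genes, sterol synthesis enzymes had 240.5 FPKM in shControl and 223 FPKM in shFKBP9, regulation and transport genes 180.6 and 177.7, and fatty acid enzymes 399.8 and 334.4. The last sum was set mostly by SCD and ACLY. The 5 genes past 1.2-fold downwards in the fatty acid arm were FASN, FADS2, ACACA, SCD and FADS1, of which FASN, ACACA and SCD stayed past it after the subtraction for GC content and length. A smaller RNA content per cell and a smaller share of cells that express a gene cannot be told apart in such bulk libraries.

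Further genes around the pathway were taken from lists. Of 13 genes of SREBP processing and its control, 2 passed 1.2-fold upwards (15.4%, against 9.11% of all protein-coding genes) and 0 downwards (against 10.9%), with a median log2 ratio of 0.05. The subtraction for GC content and length left these numbers at 2 and 0, where 7.45% of all genes passed upwards and 7.25% downwards. PAQR3, a Golgi protein that tethers SCAP and SREBP, had the highest value, at 2.19 FPKM in shControl and 3.04 FPKM in shFKBP9 (0.46, interval 0.30 to 0.65). MBTPS1, the first protease that cleaves SREBPs, had the lowest, at 15.8 FPKM and 14.9 FPKM (-0.08, -0.16 to -0.003). MBTPS2, the second protease, was the other gene past 1.2-fold, at 4.40 FPKM and 5.66 FPKM (0.35, 0.22 to 0.51).

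Of 24 further genes of fatty acid synthesis and elongation, 19 reached 1 FPKM. Of these, 3 passed 1.2-fold downwards (15.8%, against 10.9% of all) and 2 upwards (10.5%, against 9.11%), shares near those of all genes. In all 13 were lower (68.4%, against 53.7%), with a median of -0.13, or -0.10 after the subtraction. With it, 3 genes passed 1.2-fold downwards (against 7.25% of all genes) and 0 upwards (against 7.45%). SCD5, a second stearoyl-CoA desaturase, had the lowest log2 ratio, at 7.55 FPKM in shControl and 4.03 FPKM in shFKBP9 (-0.89, interval -1.11 to -0.70). ACSL4, which activates long polyunsaturated fatty acids, had the highest, at 20.7 FPKM and 27.5 FPKM (0.41, 0.33 to 0.49).

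Of 10 genes of the liver X receptor (LXR) pathway and sterol efflux, which acts when sterols are plentiful, 9 reached 1 FPKM, and 2 passed 1.2-fold downwards (22.2%, against 10.9% of all) and 0 upwards (against 9.11%). Their median log2 ratio was -0.09, and its sign turned with the subtraction for GC content and length, to 0.04. With the subtraction 1 gene passed 1.2-fold upwards (against 7.45% of all genes) and 2 downwards (against 7.25%). LPCAT3, a phospholipid acyltransferase, had the lowest value, at 5.04 FPKM and 3.23 FPKM (-0.63, interval -0.87 to -0.42), and NR1H3, which encodes LXR-alpha, the highest (0.21, -0.04 to 0.47). Among 17 genes of the isoprenoid branches that leave the mevalonate pathway, 2 passed 1.2-fold upwards (11.8%, against 9.11% of all) and 1 downwards (5.88%, against 10.9%), shares near those of all genes, and the median was 0.06. After the subtraction 1 gene passed 1.2-fold upwards (against 7.45% of all genes) and 2 downwards (against 7.25%). The gene with the lowest ratio was NUS1, a subunit of the prenyltransferase that makes dolichol. NUS1 stood at 20.5 FPKM in shControl and 8.16 FPKM in shFKBP9, from 1737 and 655 fragments, and its log2 ratio of -1.32 (-1.46 to -1.20) was past 2-fold. Its partner subunit DHDDS stood at 8.26 FPKM and 7.09 FPKM (-0.22, -0.37 to -0.07). PDSS1, which makes the tail of coenzyme Q, had the highest ratio (0.39, -0.01 to 0.81), from 92 and 115 fragments.

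**Figure D3:**
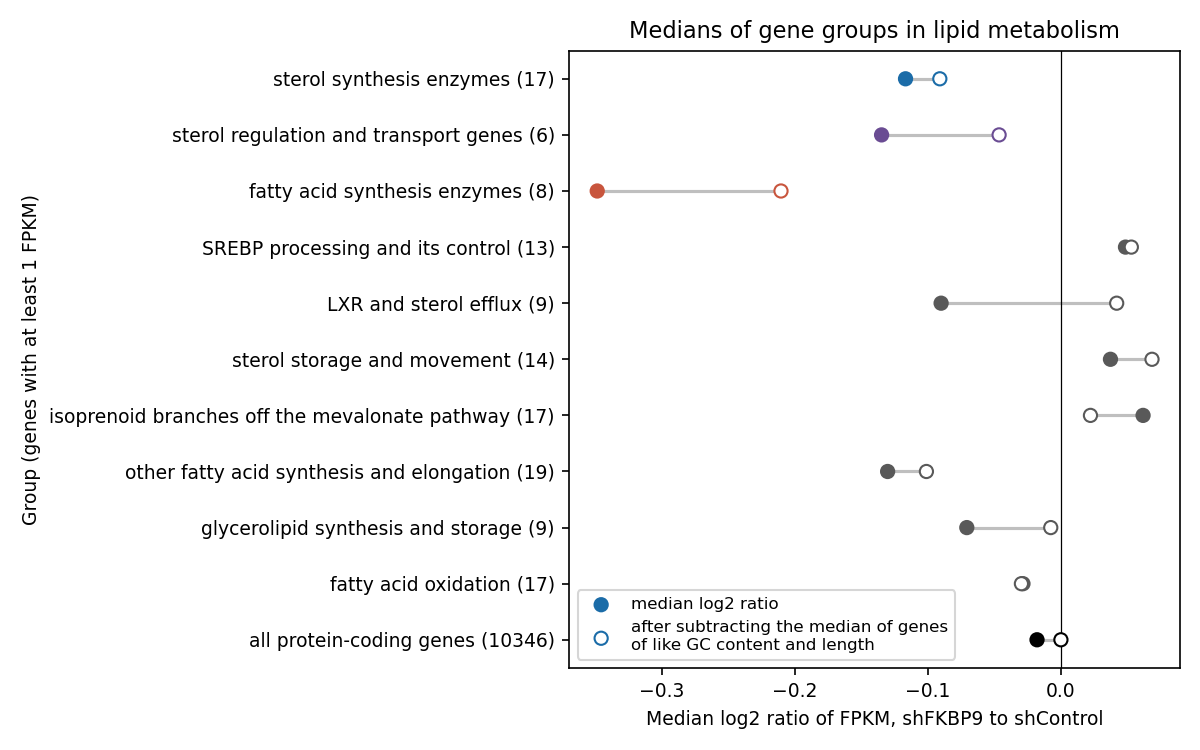
Median log2 ratio of FPKM (shFKBP9 to shControl) of the 3 groups of genes, of further lists in lipid metabolism and of all protein-coding genes, with the number of genes at the minimum in parentheses; open circles give the median after subtracting that of genes of like GC content and length. The fatty acid synthesis enzymes lie lowest by both measures, at -0.35 and -0.21.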

How the data were processed

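RNA-Seq of 1 shControl and 1 shFKBP9 library of SF-539 cells was analysed; groups follow the treatment in the labels. The authors removed reads with adapters, undetermined bases or low quality, aligned read pairs to hg38 with Hisat2 2.0.5 and counted them per gene with featureCounts 1.5.0-p3; versions are those of the submitters' processing notes. They deposited FPKM values, with gene lengths. The annotation release is not given in the sources used here. The totals that the FPKM steps imply were 0.999 and 1.00 times the fragment sums, so the authors' scaling was close to plain library size.

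The members and lists were chosen with earlier results of these data known. Fragments were recovered as FPKM times length divided by the smallest step; 100% of values were whole within 0.01. A log2 ratio was computed with 0.1 added to FPKM, a gene was counted when at least 1 FPKM in either library, and calls used 1.2-fold. GC content was the mean over transcripts of GENCODE release 44, weighted by length; genes were cut into 5 groups each by GC content and length. Exon overlaps came from the same release. Changes of ratios between genes used exact conditional odds ratios with 95% intervals. Genes named are all members, FKBP9, pseudogenes of members, the extremes of each list, listed cell type markers and genes whose exons overlap a member; MBTPS2, DHDDS, NPC1, SOAT1, PLIN2 and the markers given singly were chosen after their values were seen. Alternatives were 1 or 0.01 added, median scaling, TPM, other minima, other call rules and summed pseudogenes, and, after the data were seen, the GC and length subtraction. Fragment recovery, the fold call and the intervals were tried on simulated counts with 2-fold changes and counting error only. Tables were handled in pandas 2.3.3 under Python 3.11.15, intervals came from scipy 1.17.1, numbers from numpy 2.4.6, and plots from matplotlib 3.10.9. Promoter sequences are from RefSeq.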

Additional observations from a re-analysis of the deposited data

How the results depend on the processing

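The direction of all 3 group medians was kept under every alternative run. With 1 added to FPKM, the log2 ratio of FKBP9 was -3.16 and the median of the fatty acid enzymes -0.28; the latter was -0.21 with the subtraction for GC content and length. The number of genes past 1.2-fold upwards, 2, became 1 with TPM, where INSIG2 was at 0.255. It also became 1 with 1 FPKM in both libraries and 100 fragments, and by the counting interval. It became 0 with 1 added, at 1.5-fold, at 2-fold and with the subtraction for GC content and length, and 3 without a minimum. Downwards, 7 genes became 9 with TPM, 6 with pseudogenes summed, 5 with 1 added and 16 by the counting interval. At 1.5-fold and at 2-fold the downward number was 0. With 1 added, FADS2 (-0.26) and HSD17B7 (-0.19) no longer passed 1.2-fold. The subtraction left the downward number at 7, with 4 genes shared with the main setting. The ratios of 10 of the 31 genes moved beyond their counting interval with the subtraction and of 0 under the other alternatives. With TPM in place of FPKM, 15 sterol enzymes in place of 14 were lower. No paired analysis was possible because each condition has 1 library, and for the same reason no replicate could be left out. Depth limited HSD17B7, SC5D, CYP51A1 and TM7SF2 most.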

Other observations

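Of all protein-coding genes that reached 1 FPKM, 9.11% passed 1.2-fold upwards and 10.9% downwards. Of 16 genes of sterol storage and movement, 14 reached 1 FPKM, and 3 of these passed 1.2-fold upwards (21.4%) and 0 downwards, with a median log2 ratio of 0.04. After the subtraction for GC content and length 1 passed upwards (against 7.45% of all genes) and 0 downwards (against 7.25%). NPC2, which hands cholesterol out of the lysosome, had the highest ratio, at 27.2 FPKM in shControl and 34.4 FPKM in shFKBP9 (0.34, 95% counting interval 0.23 to 0.44). Its partner NPC1 stood at 17.5 FPKM in both. GRAMD1B, an ER carrier of sterol, had the lowest ratio (-0.24, -0.52 to -0.02), at 1.13 FPKM and 0.937 FPKM. GRAMD1B reached the minimum only through the library in which it was higher, so its ratio is no support for a difference. SOAT1, which esterifies cholesterol, stood at 10.6 FPKM and 12.2 FPKM (0.20, 0.09 to 0.31).

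Of 14 genes of glycerolipid synthesis and storage, 9 reached 1 FPKM, and 2 passed 1.2-fold upwards (22.2%) and 1 downwards (11.1%), with a median log2 ratio of -0.07. The subtraction left these numbers at 2 (against 7.45% of all genes) and 1 (against 7.25%). GPAM, the mitochondrial acyltransferase that starts glycerolipid synthesis and a known SREBP target, had the highest ratio, at 2.62 FPKM in shControl and 4.05 FPKM in shFKBP9 (0.61, 0.46 to 0.80), opposite to the fatty acid enzymes. AGPAT3, a later acyltransferase, had the lowest, at 3.64 FPKM and 2.64 FPKM (-0.45, -0.63 to -0.30). PLIN2, a coat protein of lipid droplets, had 4 fragments in each library, which is too few to compare. Of 20 genes of fatty acid oxidation, 17 reached 1 FPKM, and 2 passed 1.2-fold upwards (11.8%) and 1 downwards (5.88%), with a median of -0.03. After the subtraction 1 passed upwards (against 7.45% of all genes) and 1 downwards (against 7.25%). CPT1A, which admits fatty acids to mitochondria, had the lowest ratio, at 10.9 FPKM and 7.92 FPKM (-0.45, -0.58 to -0.33), and ACADM, a dehydrogenase of medium chains, the highest, at 5.18 FPKM and 6.45 FPKM (0.31, 0.13 to 0.50). NPC1, SOAT1 and PLIN2 were named after their values were seen. With 1 library per condition none of these values has a replicate check.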
